A study of Anopheles gambiae with 15 samples.

Results

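The subject here is a set of 117 probe sets, of 16884 mosquito probe sets on the array. Their level differed widely between the 3 pools of whole larvae, without a gap of 1 log2 unit or more between neighbouring gut section means. A probe set is a group of short probes whose signals are summarized into 1 value per array. Members were taken from the deposited log2 values by 3 conditions. The highest of the 3 whole-larva arrays had to lie at least 2.5 log2 units above the lowest, which is 5.66-fold. No gap of 1 or more was allowed between neighbours among the 4 sorted section means. The lowest section mean had to lie less than 1 above the whole-larva mean, and the highest less than 2 below it. These values chose the members, so the width of the whole-larva range and the closeness of neighbouring section means are given as a description, without a test. The section means were not more even than usual. From lowest to highest they spanned a median of 0.81 in the members, and at most 1.93, against a median of 0.51 over all probe sets.

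The arrays came from 4th instar larvae of the G3 strain of the malaria mosquito Anopheles gambiae, reared at 28 °C on yeast and fish food. Guts were dissected in ethanol and cut into 4 sections, the gastric caeca, the anterior and the posterior midgut and the hindgut, the latter with its Malpighian tubules, giving 3 arrays per section and 1000 guts pooled per array. A further 3 arrays held whole larvae, 200 individuals pooled on each. No group received a treatment. Neither the sex of the larvae nor their age within the instar is given in the sources used here, and no label says whether a whole-larva pool and a gut pool of the same number came from the same rearing.

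A whole larva holds the gut together with fat body, epidermis and cuticle, muscle, nervous tissue, haemocytes and salivary glands. The caeca branch off where the midgut begins, the midgut tube behind them digests and absorbs food, and the hindgut and the Malpighian tubules handle ions, water and waste. The 4th instar is the final larval stage of a mosquito and ends with the moult to the pupa, and in insects many transcripts of epidermis and fat body change in the course of an instar. In pooled tissue, fewer cells of a type and less RNA per cell cannot be told apart. Neither the deposited values nor the RefSeq table paired a probe set ID with a gene, with 0 of 16884 IDs matched, so the members appear under their IDs, no role is given to any of them, and no sequence is shown.

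Whole-larva arrays 1 and 2 correlated at r = 0.929 across the 16884 probe sets, arrays 1 and 3 at 0.927 and arrays 2 and 3 at 0.947. Their medians over these probe sets were 5.14, 5.12 and 5.09. None of the 4506 probe sets with a Pf prefix, which no source used here defines, reached a whole-larva range of 2.5, and their widest was 1.03. The 144 control probe sets reached at most 1.48. The added bioC spike minus the cre spike stood at -4.65, -3.86 and -3.01 in whole-larva arrays 1, 2 and 3. The same order by number was found in caeca (-4.65, -3.80 and -3.26), anterior midgut (-4.68, -4.49 and -2.93) and posterior midgut (-4.31, -3.85 and -2.82), but not in hindgut (-3.34, -3.37 and -3.21). The array number thus went with the spike difference in 4 of the 5 groups, and the part of this difference in the results below was not tested.

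A whole-larva range of at least 2.5 was found for 269 probe sets, or 1.59% of those measured. Of these, 121 had a gap of 1 or more between section means, 30 of the rest lay at least 2 lower in every section than in whole larvae, and 1 lay at least 1 higher in every section. The remaining 117 are the members. Their whole-larva range had a median of 3.06, or 8.32-fold, and a maximum of 5.72, against a median of 0.37 over all probe sets. A range of 3 or more was reached by 60 members, of 4 or more by 19 and of 5 or more by 6. Just inside the limit lay Ag.2L.544.0_CDS_at with a range of 2.51 and just outside it Ag.3R.44.0_CDS_at with 2.4999.

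**Figure D1:**
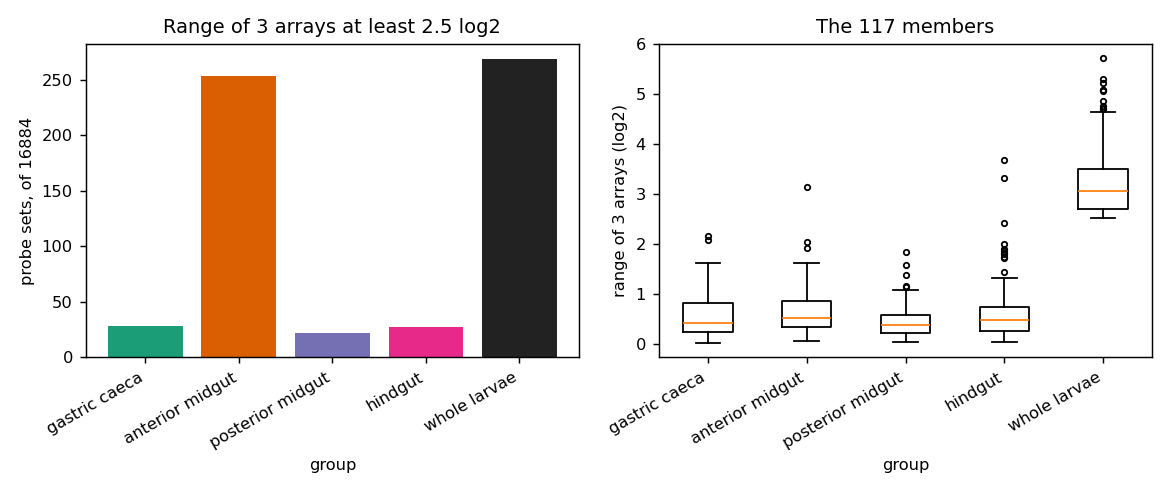
Left, the number of the 16884 probe sets whose 3 arrays span at least 2.5 log2 units, by group, with 269 in whole larvae and 254 in anterior midgut against 22 to 28 in the other sections. Right, the range of the 3 arrays of each group for the 117 members, with the median as a line, the quartiles as a box, whiskers to 1.5 box lengths and points beyond them; the members were chosen on the whole-larva range.

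The same span of 2.5 was reached by 28 probe sets in gastric caeca, 22 in posterior midgut and 27 in hindgut, while anterior midgut had 254. None of the members reached it in caeca or posterior midgut, 1 did in anterior midgut (Ag.2L.2903.0_at) and 2 did in hindgut (Ag.3L.720.0_CDS_s_at and Ag.3R.641.0_CDS_at). Anterior midgut array 2 lay at least 1 below both other arrays of its section in 1162 probe sets, or 6.88%. Ag.2L.2903.0_at was among these. Within a section the 3 arrays of a member typically differed by 0.42 in caeca, 0.52 and 0.37 in anterior and posterior midgut and 0.48 in hindgut (medians of the range). Over all probe sets these medians were 0.26, 0.50, 0.30 and 0.29. A range of 1 or more, a 2-fold spread, was seen in 19 members in caeca, or 16.2% against 2.77% of all probe sets. In hindgut it was 16 members, or 13.7% against 2.67%, in posterior midgut 7, or 5.98% against 4.19%, and in anterior midgut 20, or 17.1% against 21.4%. The choice did not use the differences between arrays of a section directly, but it used the section means of the same arrays. A single outlying gut array could thus keep a probe set out, so these spreads are not independent of the choice.

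Most members stood low in the gut. Their median over the 12 gut arrays ran from 3.82 to 13.20, with 5.15 in the middle, close to the 5.07 of all probe sets. Only 3 members had a gut median above 9. The 95th percentile of the 290 probe sets whose ID starts with a number, used as a background, lay between 5.17 and 6.56 on single arrays. The 6.56 was that of anterior midgut array 2, and the next highest was 5.83 on anterior midgut array 1. A count above background in all 12 gut arrays thus includes that 1 higher cutoff. Against it, 30 members were at background in all 12 gut arrays and 9 were above it in all 12. In whole larvae, 16 members were above it in 1 array, 46 in 2 and 55 in all 3. No such counts were made over all probe sets. The cutoff lay above the median of all Ag probe sets on every array, a median between 5.01 and 5.19. Most probe sets thus also lay at background on each array, so these counts do not show the members to be unusually low. A cutoff drawn in like manner from Pf IDs was lower, between 3.94 and 4.18. RMA can draw low signals towards a floor, so ranges that start near background may be understated, which was not tested here.

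In 116 of the 117 members at least 1 whole-larva array lay above all 12 gut arrays, against 22.2% of all probe sets. At least 2 whole-larva arrays did so in 77 members, against 10.2%, and all 3 did in 13, against 3.46%. The reverse, a whole-larva array below all 12 gut arrays, was seen in 10 members, against 18.6% of all probe sets. These counts describe members chosen on the same whole-larva values. The rule itself admitted section means further below whole larvae than above them, so nothing is read from the direction.

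The rule did not name the array that stood apart, but its conditions on the section means kept unequal shares of the patterns. For each member the larger of the 2 gaps between the sorted whole-larva values separates 1 array from the other 2. Array 1 stood alone as the highest in 43 members and alone as the lowest in 24. Array 2 was alone highest in 17 and alone lowest in 1, and array 3 was alone highest in 6 and alone lowest in 26. Over all 16884 probe sets these classes held 3050, 2629, 2565, 2989, 3081 and 2570, in the same order. Among the 269 with a range of at least 2.5, members included, they held 71, 82, 38, 11, 12 and 55. Array 3 held the lowest value of the 3 in 62 members, 36 in the order 1 over 2 over 3 and 26 in the order 2 over 1 over 3. Over all probe sets those orders took 15.9% and 15.7%. Array 3 was the highest in 19 members, though it was the highest in 35.4% of all probe sets.

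**Figure D2:**
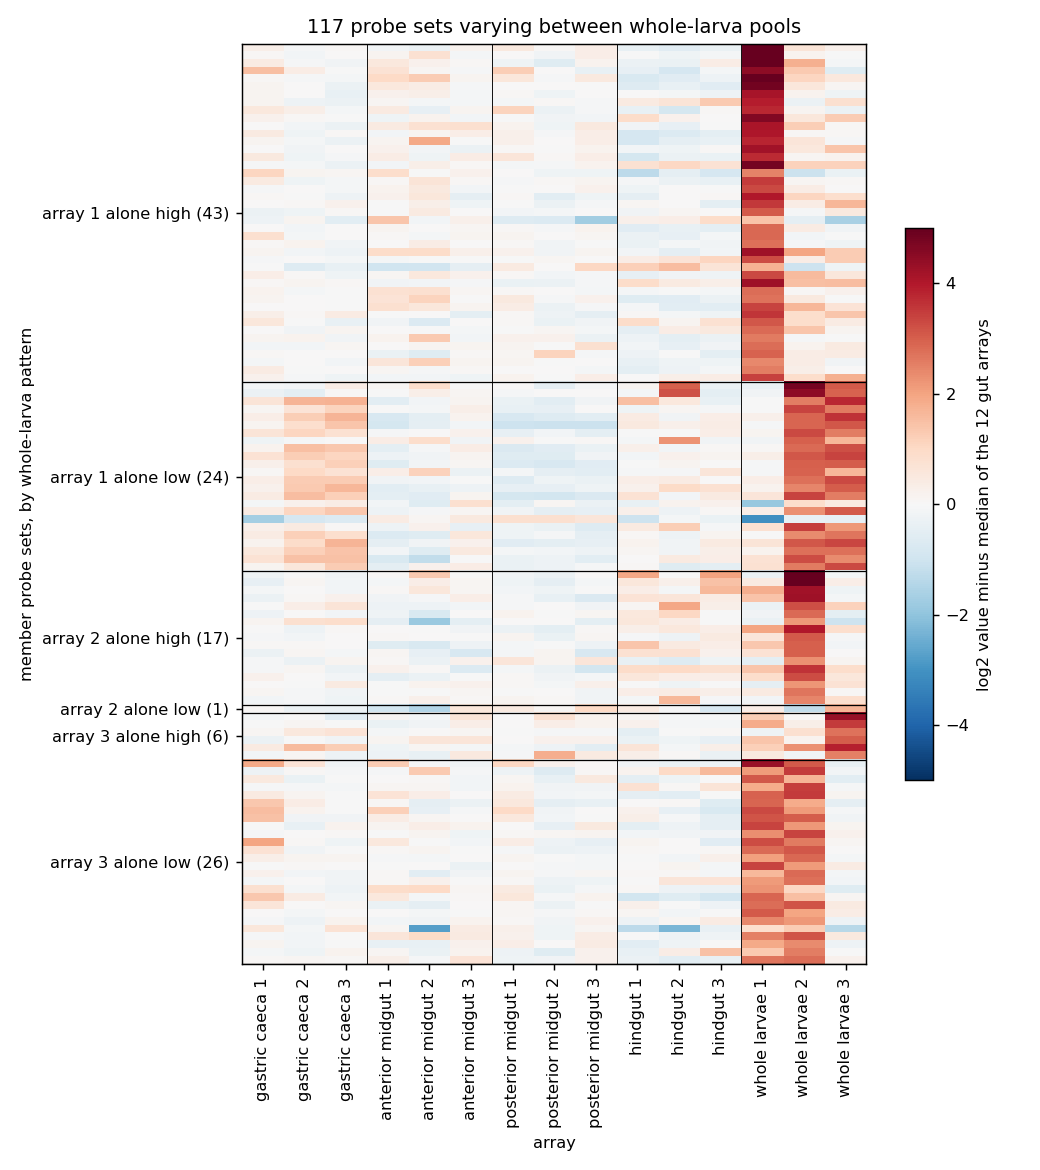
Heat map of the 117 members (rows, grouped by the whole-larva array that stood alone and its direction, with the number of members) in the 15 arrays (columns). Colour is the log2 value minus the member's median over the 12 gut arrays; the whole-larva columns on the right hold the strong colours, and the caeca columns 2 and 3 are raised among the 24 members with array 1 alone low.

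The members with array 1 alone high had medians of 8.83, 5.53 and 5.49 in whole-larva arrays 1, 2 and 3. Array 1 lay 3.51 above the gut median of the same probe set in the typical case, whereas arrays 2 and 3 lay 0.38 and 0.14 above it. Array 1 exceeded all 12 gut arrays in all 43. It did so in 969 of the 3050 probe sets with array 1 alone high. Of the 71 such probe sets with a range of at least 2.5, members included, it did so in 68. In 23 of the 43 members arrays 2 and 3 both fell within the span of the gut arrays. That was so in 2330 of the 3050 and in 35 of the 71. The widest member was Ag.3R.1705.0_CDS_s_at, with 11.89, 6.99 and 6.59 in the 3 pools, a 39.6-fold span. Its 12 gut arrays ran from 5.79 through a median of 6.35 to 6.85, so array 1 was far above every other array. Ag.2L.2132.0_CDS_s_at followed with 9.49, 4.47 and 4.26, a 37.5-fold span. It lay between 4.08 and 5.05 in the gut with a median of 4.28, at background in all sections and in 2 of the 3 pools.

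The members with array 2 alone high had medians of 5.87, 8.41 and 5.24 in the 3 pools, and array 2 exceeded all 12 gut arrays in all 17. It did so in 788 of the 2565 probe sets with array 2 alone high. Of the 38 with a range of at least 2.5, it did so in 28. Hindgut had the highest section mean in 14 of the 17 members, 82.4% against 42.3% of all probe sets with array 2 alone high. Of the 38 such probe sets with a range of at least 2.5, members included, it was 31, or 81.6%, so this was not particular to the members. Ag.3R.119.0_CDS_x_at had the widest span of all members, 52.9-fold, with 5.01, 10.74 and 5.24. In hindgut it stood at 7.23, 5.31 and 7.32, so that array 2 was the high one in whole larvae and the low one in hindgut. It was the single member with hindgut array 2 at least 1 below both others, against 0.0474% of all probe sets. The other 9 gut arrays of this probe set lay at or below 6.62. Ag.3L.1784.0_CDS_at stood at 6.89, 11.68 and 6.80 in the pools, a 29.3-fold span, and between 6.01 and 7.92 in the gut.

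Array 3 was alone high in 6 members, with medians of 6.31, 5.10 and 8.08. Ag.2L.1384.0_CDS_at stood at 6.29, 5.12 and 9.41 in the pools and between 4.51 and 5.80 in the gut. Ag.3L.1826.0_CDS_s_at stood at 6.57, 5.03 and 8.22 and between 4.40 and 5.06 in the gut. In both, array 1 lay above all 12 gut arrays as well, and array 2 did not. The single member with array 2 alone low, Ag.3L.2601.0_at, stood at 5.60, 4.01 and 6.95, and its anterior midgut arrays, at 4.34, 3.79 and 5.83, had the same lowest and highest number.

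Array 3 was alone low in 26 members, with medians of 7.99, 7.82 and 5.13. Arrays 1 and 2 both lay above all 12 gut arrays in 25 of these, and the median difference of array 3 from the gut median was -0.06. Both arrays did so in 462 of the 2570 probe sets with array 3 alone low. Of the 55 with a range of at least 2.5, members included, both did so in 45. Ag.2R.1744.0_CDS_at stood at 9.34, 8.10 and 4.64, a 26.2-fold span. Its caeca arrays were at 6.92, 5.69 and 4.85, its anterior midgut arrays at 6.29, 4.95 and 4.84 and its posterior midgut arrays at 6.08, 5.24 and 5.10. The order of the pools, 1 over 2 over 3, thus returned in those 3 sections, and the hindgut arrays lay together at 4.83, 4.70 and 4.76. Ag.2L.1677.0_CDS_at stood at 8.39, 9.75 and 6.13 in the pools and between 5.61 and 7.88 in the gut, with its highest gut values in hindgut array 3 and anterior midgut array 2.

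**Figure D3:**
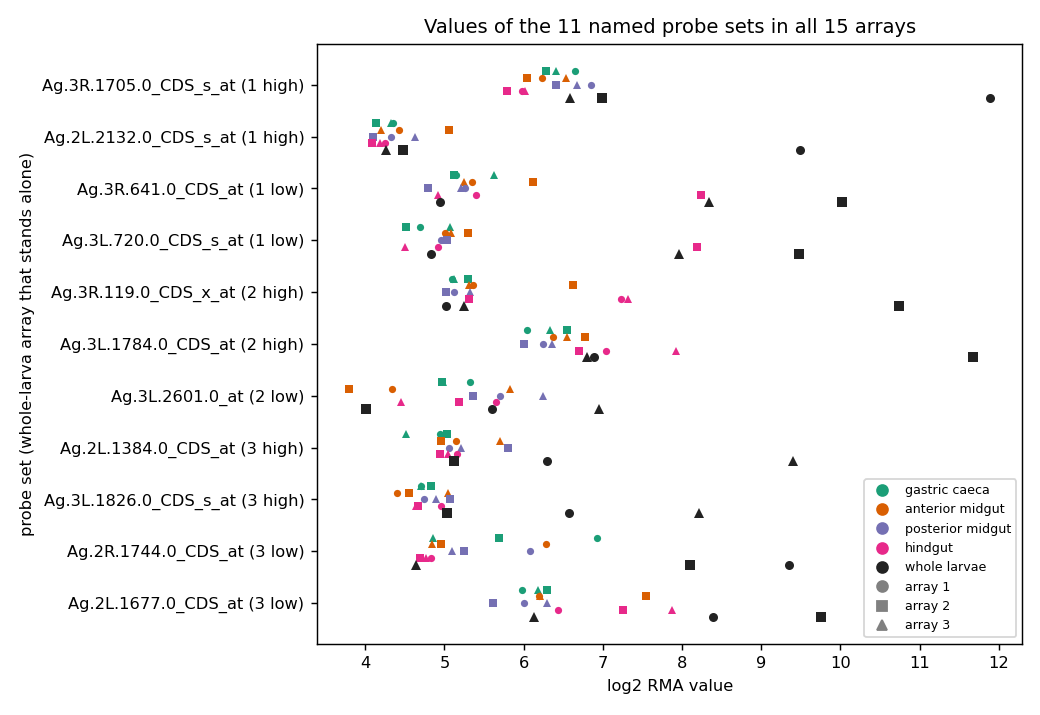
log2 values of the 11 members named by rule (rows, with the whole-larva array that stood alone and its direction) in all 15 arrays; colour marks the group and the symbol the array number. In each row except that of Ag.3L.2601.0_at at least 1 black whole-larva symbol lies more than 1 log2 unit to the right of all gut symbols.

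Array 1 was alone low in 24 members, with medians of 5.79, 8.75 and 8.60. In the typical case array 1 lay 0.10 above the gut median of the same probe set, and arrays 2 and 3 lay 2.93 and 2.99 above it. Caeca had the highest section mean in 19 of the 24, 79.2% against 15.4% of all probe sets with array 1 alone low. Of the 82 such probe sets with a range of at least 2.5, members included, it was 55, or 67.1%. Ag.3R.641.0_CDS_at stood at 4.94, 10.02 and 8.34 in the pools, a 33.9-fold span. Ag.3L.720.0_CDS_s_at stood at 4.83, 9.47 and 7.96, a 25-fold span. Both are exceptions in the gut, where hindgut and not caeca held the highest mean.

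The caeca arrays of these 24 members mostly had the same low array as the pools. Caeca array 1 was the lowest of the 3 caeca arrays in 21 of the 24, against 49.6% of all probe sets with whole-larva array 1 alone low. The median deviation from the caeca mean was -0.52 in array 1, 0.17 in array 2 and 0.33 in array 3, beside -1.76, 0.92 and 0.92 in whole larvae. All 24 lay below the caeca mean in caeca array 1. Anterior midgut array 1 was the lowest of its section in 14 of the 24, against 24.6%, posterior midgut array 1 in 9, against 36.4%, and hindgut array 1 in 8, against 46.1%. In posterior midgut and hindgut the counts were thus near or under the background. Of the 82 probe sets with array 1 alone low and a range of at least 2.5, members included, caeca array 1 was the lowest in 66, or 80.5%, so the pattern was not particular to the members. Anterior midgut array 1 was the lowest of its section in 52.4% of the 82, posterior midgut array 1 in 50% and hindgut array 1 in 48.8%.

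Caeca array 1 lay at least 1 below both other caeca arrays in 3 members, against 0.551% of all probe sets, or 93. All 3 members had array 3 as the highest pool. Of the 93, 34 had array 2 as the highest and array 1 as the lowest pool. How many had array 3 as the highest was not counted, so nothing is read from the order shared by the 3 members. Ag.3R.12.2_s_at stood at 5.84, 6.91 and 6.94 in caeca and at 5.16, 7.74 and 8.98 in whole larvae. Ag.3L.6.0_CDS_at stood at 6.33, 7.67 and 7.49 in caeca and at 6.23, 9.01 and 9.38 in whole larvae. Ag.2L.33.0_CDS_at stood at 4.92, 6.01 and 6.36 and at 4.88, 7.16 and 7.74. In each of them array 1 was the low array in both kinds of sample, with a wider step in whole larvae. These probe sets and those of the next 2 paragraphs were chosen after their values were seen.

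**Figure D4:**
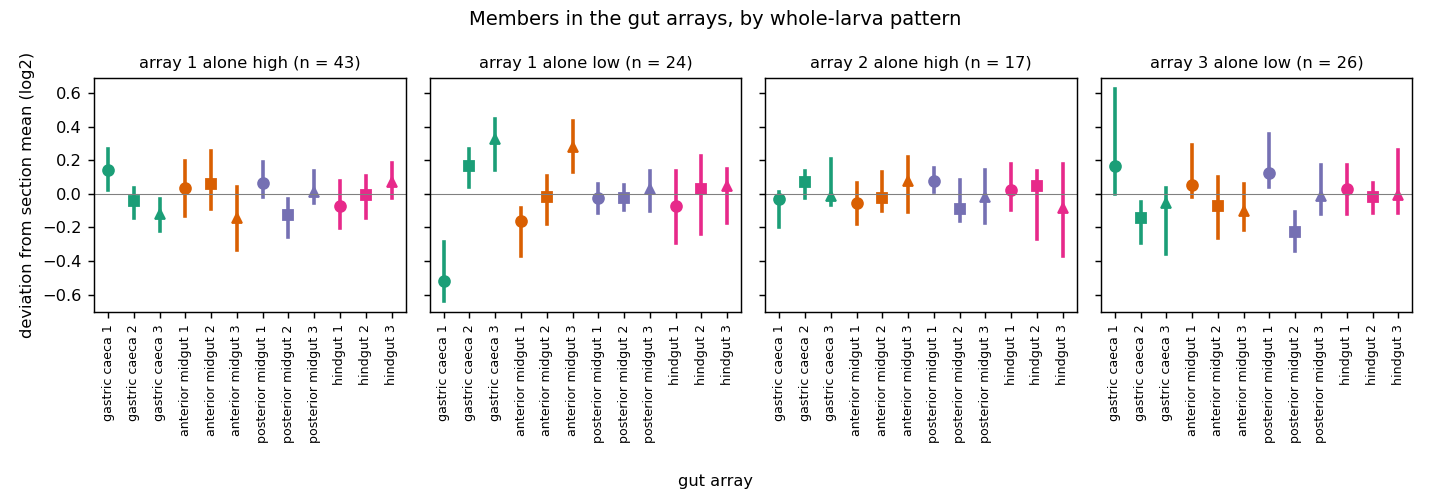
Deviation of each gut array from the mean of its section (log2), as the median (symbol) and the quartiles (line) over the members of the 4 largest classes of whole-larva pattern; symbols mark the array number and colours the section. Among the members with array 1 alone low, caeca array 1 lies at -0.52, and among those with array 3 alone low, posterior midgut array 2 lies at -0.23.

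A group of 5 members had hindgut array 2 at least 1 above both other hindgut arrays, against 0.261% of all probe sets, or 44. All 5 had array 2 as the highest and array 1 as the lowest pool of whole larvae, as did 18 of the 44. The hindgut arrays of Ag.3L.720.0_CDS_s_at stood at 4.92, 8.19 and 4.50 and those of Ag.3R.641.0_CDS_at at 5.39, 8.24 and 4.92. Ag.2R.1757.0_CDS_at stood at 4.38, 6.75 and 4.33 in hindgut and at 4.33, 7.50 and 6.14 in the pools. The other 2, Ag.2R.1859.0_CDS_at and Ag.2R.1940.0_CDS_at, had hindgut array 2 at 6.77 and 5.84, with pools at 4.54, 8.04 and 5.97 and at 4.06, 6.67 and 5.05. Whole-larva array 1 stood alone low in Ag.3L.720.0_CDS_s_at, Ag.3R.641.0_CDS_at and Ag.2R.1757.0_CDS_at, so arrays 2 and 3 were the elevated pools. In the other 2 members, whole-larva array 2 stood alone high. Each of the 5 had 1 elevated hindgut array, of number 2, while hindgut arrays 1 and 3 stayed near the level of whole-larva array 1.

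Another 5 members had caeca array 1 at least 1 above both other caeca arrays, against 0.19% of all probe sets, or 32. All 5 had the pools in the order 1 over 2 over 3, as did 10 of the 32. They are Ag.2R.1744.0_CDS_at, described above, Ag.2R.3612.0_CDS_at, Ag.2R.2815.0_CDS_s_at, Ag.UNKN.372.0_CDS_at and Ag.UNKN.1154.0_CDS_s_at. The caeca arrays of Ag.UNKN.372.0_CDS_at stood at 6.93, 5.05 and 4.77 and its pools at 8.22, 7.57 and 5.09. Ag.UNKN.1154.0_CDS_s_at had array 1 as the highest array in every section, at 7.34 in caeca, 6.98 and 6.78 in anterior and posterior midgut and 6.0 in hindgut, with 9.08, 7.93 and 5.74 in the pools. Its other gut arrays lay between 5.03 and 5.94.

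In the 26 members with array 3 alone low, posterior midgut array 2 stood low. All 26 lay below the section mean in posterior midgut array 2, with a median deviation of -0.23, and 22 lay above it in posterior midgut array 1. Over all probe sets, 7584 of 16884 lay above the mean in posterior midgut array 2, with a median deviation of -0.02. Of the 43 members with array 1 alone high, 9 lay above it, with a median of -0.12, so the low values of this array were not limited to the members with array 3 alone low. Here the gut arrays did not follow the pools by number, since whole-larva array 2 was high in these members. Posterior midgut array 3 was the lowest of its section in 5 of the 26, against 47.2% of all probe sets with array 3 alone low. It was 12 in caeca, against 40.1%, 12 in anterior midgut, against 38.5%, and 9 in hindgut, against 38.3%. Of the 55 such probe sets with a range of at least 2.5, members included, it was 27.3% in posterior midgut and 52.7% in caeca. It was 36.4% in anterior midgut and 38.2% in hindgut.

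Among the 43 members with array 1 alone high, caeca array 1 was the highest of its section in 29, against 46.3% of all probe sets with that pattern, and 34 of them lay above the caeca mean there. Posterior midgut array 1 was the highest in 24, against 39%, anterior midgut array 1 in 15, against 19.7%, and hindgut array 1 in 11, against 38.9%. Of the 71 such probe sets with a range of at least 2.5, members included, it was 71.8% in caeca and 54.9% in posterior midgut. It was 26.8% in anterior midgut and 31% in hindgut. The shares of the members were 67.4%, 55.8%, 34.9% and 25.6%, so those in caeca and posterior midgut were not particular to them. The median deviation of caeca array 1 was only 0.14. Among the 17 with array 2 alone high, array 2 was the highest in 7 in caeca (47.6%), 7 in hindgut (28.9%), 4 in anterior midgut (39.5%) and 4 in posterior midgut (40.9%). Of the 38 such probe sets with a range of at least 2.5, members included, the shares were 65.8%, 28.9%, 44.7% and 39.5% in the same order. Neither class had a gut array that moved as far as caeca array 1 did in the members with array 1 alone low.

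Whether the members differed between repeats inside the gut was tested on the 12 gut arrays alone, which the condition on the whole-larva range did not use. The conditions on the section means did use them, so probe sets with an outlying gut array could have been left out. A linear model with a mean per section and an effect of the replicate number was fitted in limma to all 16884 probe sets. It held 1 replicate effect for all 4 sections, so a difference limited to 1 section was averaged with the others. By its F test with Benjamini-Hochberg adjustment, 0 members passed at an adjusted p under 0.05, and 0 of all probe sets did (0%). At an unadjusted p under 0.05 there were 22 members of 117, against 3.77% of all probe sets. The smallest p was that of Ag.UNKN.1154.0_CDS_s_at, whose gut arrays of number 1 lay 1.19 above the mean of the others (adjusted p = 0.982 in limma). With array weights in the same fit this probe set passed as the single member (adjusted p = 0.0188), beside 4 of all probe sets or 0.0237%. The weights were extremely uneven, with 404 for anterior midgut array 1 against at most 1.90 for any other array. Whether they had converged was not checked.

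For each member the array number that stood alone in whole larvae was then read in the gut fit, as that number minus the mean of the other 2. The sign was the same as in whole larvae in 78 of the 117 members, or 66.7%, against 60.4% of all probe sets, so the share over all members was near the background. By class it was the same in 23 of the 24 members with array 1 alone low, against 66.5% of all probe sets of that pattern. It was the same in 30 of 43 with array 1 alone high, against 57.8%, in 14 of 26 with array 3 alone low, against 63.3%, and in 7 of 17 with array 2 alone high, against 56.2%. In the smaller classes it was the same in 3 of 6 with array 3 alone high, against 57.4%, and in the 1 with array 2 alone low, against 61.7%. The gut differences were small beside those of the pools. Their median was -0.32 where array 1 was alone low and 0.07 where it was alone high, against -2.64 and 2.89 in whole larvae. With the 3 caeca arrays left out, an alternative chosen after the data were seen, the sign was the same in 65 of the 117 members, against 57.4%, and in 19 of the 24, against 62.6%.

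Within sections, the members with array 1 alone low varied together the most, and not every class did so. After removal of the section means, the 276 pairs among the 24 members with array 1 alone low had a median correlation of 0.43 over the 12 gut arrays, and pairs of these with other members had -0.14. The median was 0.19 among the 43 with array 1 alone high and 0.19 among the 26 with array 3 alone low, and -0.02 among the 17 with array 2 alone high. It was 0.27 among the 6 with array 3 alone high. All of these pairs share the same arrays, and the values are a description. They were not computed for probe sets of the same patterns outside the members.

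The design compares each gut section with whole larvae, and the members enter that comparison with a whole-larva mean that rests on pools far apart. The whole-larva means were used to choose the members, so the following counts are a description. In the limma fit of all 15 arrays, at an adjusted p under 0.05 and at least a 2-fold difference, 20 members were called lower in caeca than in whole larvae (3.9% of all probe sets were called lower). It was 46 in anterior midgut (7.95%), 43 in hindgut (4.05%) and 41 in posterior midgut (5.17%). A single member was called higher, in posterior midgut, where 3.72% of all probe sets were, and none was in caeca (4.24%), anterior midgut (2.35%) or hindgut (7.29%). In either direction, 8.14%, 10.3%, 8.89% and 11.3% of all probe sets were called, in the same order of sections. All 4 comparisons share the whole-larva arrays, so their counts are not independent of each other. The median difference over the members was -1.37 in caeca, -1.59 and -1.72 in anterior and posterior midgut and -1.59 in hindgut, with medians over all probe sets of 0.01, 0.06, 0.04 and -0.05.

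The member called higher, Ag.2R.2847.0_CDS_at, was also the most abundant in the gut. It stood at 13.93 ± 0.10 (SD, n = 3) in posterior midgut and at 11.92 ± 1.55 in whole larvae, a difference of 2.01 ± 0.57 (limma's SE, adjusted p = 0.0337). The pools were at 10.13, 12.83 and 12.80, so array 1 lay below all 12 gut arrays, the lowest of which was caeca array 1 at 11.49. Ag.3R.26.0_CDS_at had the same low pool, with pools at 7.78, 10.56 and 10.14 and gut arrays between 9.06 and 10.49. The third abundant member, Ag.2L.2903.0_at, had pools at 10.77, 11.21 and 8.55, and its anterior midgut arrays stood at 10.04, 7.19 and 10.33.

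Those counts depend on the spread that the 5 groups share in the fit. The median SD of the members was 1.59 in whole larvae, against 0.23 in caeca, 0.29 and 0.19 in anterior and posterior midgut and 0.24 in hindgut. Over all probe sets the median SD of whole larvae was 0.19. Pooling 5 groups gave a median standard error of 0.57 for the members, whereas a fit of the 6 arrays compared gave 0.74 to 0.77. In those fits of 2 groups, 0 members were called in caeca and 0 in anterior midgut, while posterior midgut had 2 and hindgut 2, beside 6.37%, 4.13%, 6.75% and 10.2% of all probe sets. At an unadjusted p under 0.05 the same fits held 21, 33, 44 and 39 members. Those called were all lower in the section than in whole larvae. Those of posterior midgut were Ag.2L.157.0_CDS_a_at, at -3.01 ± 0.66 (SE, adjusted p = 0.0433 in limma), and Ag.2L.225.0_CDS_at, at -2.77 ± 0.64 (adjusted p = 0.0497). Those of hindgut were Ag.3L.796.0_CDS_at, at -2.74 ± 0.71 (adjusted p = 0.0445), and Ag.X.151.0_CDS_at, at -2.57 ± 0.63 (adjusted p = 0.0364). In these 4 all pools lay above all arrays of the section, as with Ag.3L.796.0_CDS_at, whose pools were at 9.93, 7.66 and 6.99 and whose hindgut arrays were at 5.55, 5.24 and 5.57.

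Single arrays moved these counts as well. With 1 array of the section itself left out, the fit of all groups called 7, 5 and 5 members in caeca without arrays 1, 2 and 3. It called 17, 21 and 40 in anterior midgut without arrays 1, 2 and 3, between 21 and 23 in posterior midgut, and 21 or 22 in hindgut. Without whole-larva array 3 it called 49, 66, 66 and 61 in the 4 sections, without array 1 it called 38 in caeca, and without array 2 it called 28 in anterior midgut. The count of members called lower than whole larvae thus depended on which pools were averaged.

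**Figure D5:**
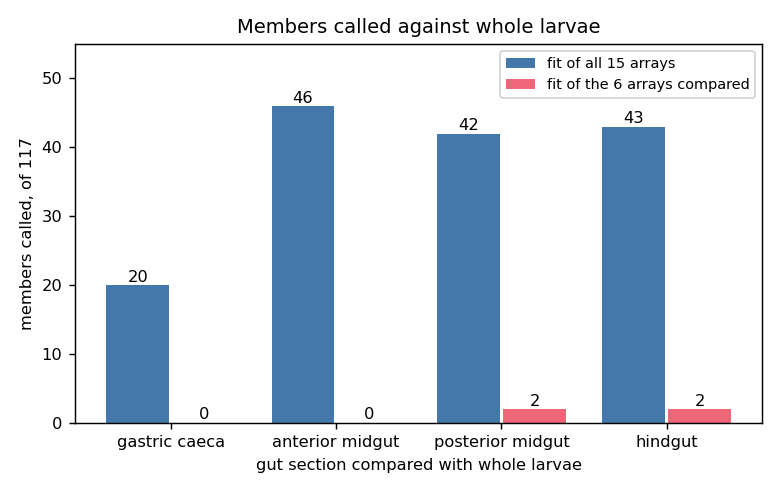
Members called against whole larvae in each gut section (limma, adjusted p under 0.05 and at least 2-fold, either direction, of 117), in the fit of all 15 arrays and in the fit of the 6 arrays compared. The bars fall from 20, 46, 42 and 43 to 0, 0, 2 and 2.

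The single arrays carried different parts of the set. Without whole-larva array 1, the range of the remaining pair of pools kept 38 probe sets in the set, 32 of them members. Without array 2 it kept 64, 59 of them members, and without array 3 it kept 47, 46 of them members. Leaving out any 1 gut array left between 107 and 122 probe sets, with 102 to 117 of the members among them. Quantile normalization of the values gave 123 probe sets, of which 102 were members, and 116 of the 117 members kept the same array and direction that stood alone.

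Members came from all ID fields. By the second part of the ID, 31 were 2L, 32 were 2R, 22 were 3L, 19 were 3R, 6 were X and 7 were UNKN, that is 26.5%, 27.4%, 18.8%, 16.2%, 5.13% and 5.98% against 20.3%, 26.3%, 14.8%, 18.8%, 8.31% and 11.5% of all probe sets. No source used here defines this field. Of the 24 members with array 1 alone low, 10 were 3L, and of the 26 with array 3 alone low, 12 were 2R. The shares of these fields over all probe sets with the same patterns were not computed, so nothing is read from these counts. CDS stood in the ID of 94 members, or 80.3% against 83.3%, and UTR in that of 3. IDs that end in s_at made up 13.7% of the members and 8.14% of all probe sets.

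The 117 members came from 115 ID stems, the part of the ID up to its number, and 11 had another probe set on their stem. Both Ag.3L.936.0 and Ag.UNKN.107.0 gave 2 members. The other 7 partners were no members and so were not chosen, though they lay on the same arrays. Their whole-larva range ran from 0.14 to 4.97 with a median of 1.91, and 6 of 7 had a range of at least 1, beside 13.8% of all probe sets. The same pool was the highest in 6 of the 7 and the same pool the lowest in 6, against 59.2% and 55.4% of the 872 pairs that share a stem. Ag.3L.720.0_UTR_s_at, partner of Ag.3L.720.0_CDS_s_at, stood at 4.81, 9.79 and 8.86 in the pools, against 4.83, 9.47 and 7.96 in the member. Its hindgut arrays stood at 5.12, 9.22 and 3.99, with the same raised array 2 as in the member, and the resulting gap between section means kept it out of the set. Ag.3L.184.0_UTR_at stood at 12.37, 10.02 and 10.43, with its member Ag.3L.184.0_CDS_at at 9.29, 5.25 and 5.95. For these pairs, separate probe sets of a stem thus gave the same order of the pools. The exception with a range of 0.14 was Ag.3L.191.0_UTR_at, which lay between 4.49 and 4.63 in the pools, where its member Ag.3L.191.0_CDS_at stood at 6.23, 8.83 and 8.81.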

How the data were processed

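RNA of 4 gut sections and of whole larvae was measured on 15 arrays, 3 per group. The deposited log2 values, 1 per probe set and array, were made with RMA (background correction, normalization between arrays and summary per probe set) per the submitters' processing notes; no source used here gives its version or settings. The 22761 rows include 16884 with the prefix Ag, which were tested. An array gives no counting depth, so the number of arrays limits the precision.

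Members, lists and tests were chosen with earlier results of these data known. Models were fitted in limma 3.58.1 (lmFit, eBayes) run in R 4.3.3 over all Ag probe sets and Benjamini-Hochberg adjustment, and were tested on simulated data. Named members are the 2 with the widest whole-larva range for each array standing alone and direction. Other IDs were picked after their values were seen. The labels call the samples biological repeats. Deviations of same-numbered arrays correlated above 0.1 in all 3 numbers between whole larvae and caeca (at least 0.268), between whole larvae and posterior midgut (at least 0.172) and between caeca and posterior midgut (at least 0.300). Those were labelled as paired, and the other 7 combinations of groups were not. The fits against whole larvae did not use this pairing and had no replicate term, except in the alternative with a replicate block. The test on the gut arrays used 1 replicate effect for all 4 sections, though among these only caeca and posterior midgut were labelled as paired. Alternatives were other normalizations, filters, fits, thresholds and each array left out.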

Additional observations from a re-analysis of the deposited data

Results flagged for a closer look

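Among the 937 probe sets whose ID starts with a sequence accession, which the comparisons above did not use, 5 (0.534%) also had a whole-larva range of at least 2.5, against none of the 4506 Pf probe sets. No table used here names their genes. U50475.1_at had a range of 8.62, or 393-fold, with pools at 4.72, 13.34 and 12.86. Its 12 gut arrays lay between 6.93 and 12.70, so whole-larva array 1 was below all of them. That was so in 2 of the 24 members with array 1 alone low, against 764 of the 2629 Ag probe sets with that pattern. The sections differed widely, at 12.22 ± 0.45 (SD, n = 3) in caeca and 8.21 ± 1.31 in posterior midgut. U50473.1_s_at had a range of 4.28, with pools at 8.27, 6.41 and 3.99 and gut arrays between 3.94 and 5.59. AY137766.1_s_at had a range of 3.13, with pools at 7.77, 5.06 and 4.64 and gut arrays between 4.46 and 5.37. S72718.1_at and S72718.1_x_at had ranges of 3.07 and 2.73 and share a stem; both had array 2 alone low, at 4.23 against 7.30 and 7.21 for the first, and their gut arrays lay between 3.53 and 4.01.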

How the results depend on the processing

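Quantile normalization, median centring, a filter on low values and the replicate block left the members called against whole larvae within 1.5 times of the reported counts; with the replicate block they were 22, 50, 44 and 46 (caeca, anterior midgut, posterior midgut, hindgut). Fits of the 2 groups compared gave 0, 0, 2 and 2, with fewer arrays and without the gut sections' smaller spread. Leaving out single arrays gave 5 to 49, 17 to 66, 21 to 66 and 21 to 61 in that order. Without a caeca array there were 7, 5 and 5, without anterior midgut arrays 1 and 2 there were 17 and 21, without a posterior midgut array 23, 21 and 23 and without a hindgut array 22, 21 and 21, each in its own comparison. Without whole-larva array 1 there were 38 in caeca, without array 2 there were 28 in anterior midgut, and without array 3 there were 49 in caeca and 66 in posterior midgut. The set held 245 probe sets at a range of 2 and 60 at a range of 3, and 38 to 122 with 1 array left out. The test between replicate numbers called 0 to 0 members with 1 array left out, 0 under the other alternatives except array weights, and 1 with array weights. The same sign was found in 65 to 85 members with 1 gut array left out; without a whole-larva array no array stands alone, so it was not computed. Ranges of the 11 named members moved by less than their SD under both normalizations. Probe sets near the floor of RMA may have understated ranges, which was not tested.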
